A study of Mus musculus with 16 samples.

Results

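The genes described here are 44 listed members of the Wnt system: 17 Wnt ligands, 12 receptors of the Frizzled and LDL-receptor-related families, 3 R-spondin receptors, 2 transcription factors, 4 intracellular or membrane-bound feedback inhibitors and 6 secreted inhibitors. They were found by gene name among the 34832 gene names of a mouse expression array, and each was read from the probe of that name with the highest mean signal over all 16 arrays. Probes were thus chosen by their mean signal, which takes no account of group. All 44 had a probe. The probe was well above the local background on at least 3 of the 4 arrays of some group for 39 genes, which were tested among 25426 genes in all. The 5 genes not tested were Wnt3, Wnt3a, Wnt6, Dkk1 and Wif1, whose probes were not well above background on any of the 16 arrays.

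The cells were primary murine alveolar type II cells of strain C57BL/6, the epithelial cells of the alveolus that make surfactant, and their total RNA was hybridised to 16 one-colour arrays. The 4 groups of 4 arrays were hyperoxia (85% O2) for 6 h, normoxia (21% O2) for 6 h, hyperoxia for 24 h and normoxia for 24 h. The labels do not say whether the 4 RNAs of a group came from separate mice or cultures, so p-values measure the spread between these arrays, which may be technical. Levels below are log2 signal relative to the 75th percentile of the same array, so that 0 is that percentile, and a level is set only against the same probe on other arrays. A gene was called higher or lower, here also "rose" or "fell", where limma's p, adjusted by the Benjamini-Hochberg method over all 25426 genes tested, was under 0.05. The error after each log2 fold change is its standard error, and n = 4 arrays in every group.

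Wnt ligands are secreted, lipid-bearing glycoproteins that bind Frizzled receptors together with the co-receptors Lrp5 and Lrp6. In the canonical branch this stops the destruction complex around Axin and Apc from breaking down beta-catenin, which then works with Lef1 and the Tcf factors at target genes, among them the inhibitors Axin2, Nkd1, Rnf43 and Znrf3. R-spondins, acting through Lgr4, Lgr5 and Lgr6, keep Rnf43 and Znrf3 from removing Frizzled receptors from the cell surface. In the lung, Wnt signals are known for their part in airway and alveolar development and in the self-renewal of type II cells.

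The share of probes well above background ran from 53.7% to 69.0% per array and was lowest on normoxia 24 h replicate 3. The 4 arrays of each oxygen group at 6 h stood on 1 slide and all 8 arrays at 24 h on another, so time and slide cannot be told apart. Normoxia took the first row of each slide and hyperoxia the second, so oxygen and slide row cannot be told apart either. Markers of type II cells were measured: Sftpc, the surfactant protein C gene, was well above background on all 16 arrays, whereas Slc34a2, a phosphate transporter gene used as a type II marker, was not on any. Transcripts typical of fibroblasts and smooth muscle, such as Col1a1 and Acta2, were also well above background on all 16 arrays. In RNA of a bulk sample, fewer cells of a type and less RNA per cell cannot be told apart.

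At 6 h hyperoxia moved none of the 39 tested Wnt genes past the threshold, where 0.326% of all genes tested passed (0.236% higher and 0.0905% lower). At an unadjusted limma p under 0.05 there were 4, namely Wnt5b, Wnt10b, Fzd5 and Fzd10, where 1878 of all 25426 genes tested passed. The median log2 fold change was -0.01, against 0.01 over all genes. The groups did not overlap for 3 of the 39, while 4.31% of all genes had groups without overlap. Of these, Wnt5b, a ligand best known for signalling without beta-catenin, had levels of 0.18, 0.12, 0.18 and 0.04 in hyperoxia, against 0.32, 0.43, 0.30 and 0.32 in normoxia (log2 fold change -0.21 ± 0.08, limma adjusted p = 0.543). For the receptor gene Fzd5 they were -2.67, -2.39, -2.32 and -2.48 in hyperoxia, against -2.76, -3.05, -2.67 and -2.85 in normoxia (0.37 ± 0.13, limma adjusted p = 0.431). The lowest hyperoxia and the highest normoxia array differed only past the second decimal, and a second Fzd5 probe, also above background on all arrays, gave -0.12.

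By 24 h, 11 of the 39 tested Wnt genes differed between hyperoxia and normoxia, 4 higher and 7 lower. That is 28.2% of them, and 28.3% of all genes tested were called at 24 h (15.5% higher and 12.8% lower), so the share of Wnt genes called was at the level of the array as a whole. The genes that rose were the ligand genes Wnt5a and Wnt9a, the receptor gene Fzd10 and the secreted inhibitor gene Sfrp2. The genes that fell were the ligand genes Wnt5b, Wnt10b and Wnt16, the receptor genes Fzd4 and Fzd9, the R-spondin receptor gene Lgr5 and the feedback inhibitor gene Nkd1. Called members fell on both sides of 0 among the ligands and among the receptors, and the median over the 39 was 0.08, against 0.01 over all genes. Only Fzd10 changed by 2-fold or more. Groups did not overlap for 12 of the 39, where 33.2% of all genes had groups without overlap. The 12 were the 11 called genes and Znrf3.

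**Figure D1:**
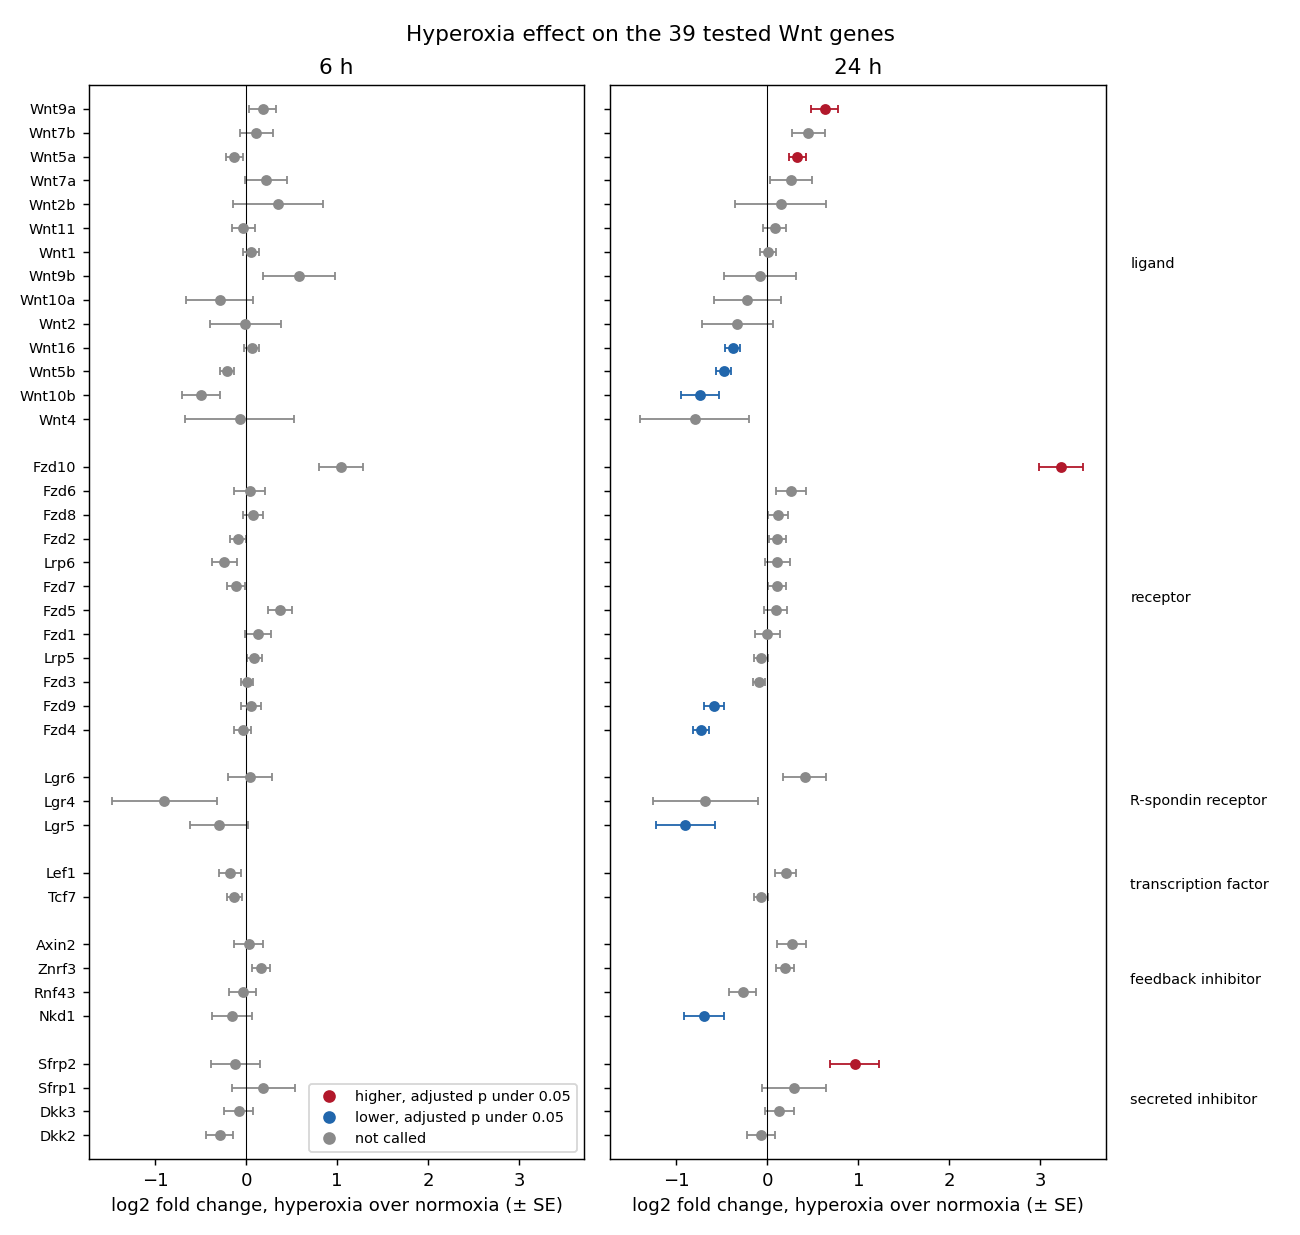
Log2 fold change of hyperoxia over normoxia (horizontal axis, ± SE) for the 39 tested Wnt genes at 6 h (left) and 24 h (right), arranged by role from ligands at the top to secreted inhibitors at the bottom. No gene was called at 6 h. At 24 h the 4 genes called higher are red and the 7 called lower are blue, and Fzd10 lies apart at 3.23.

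The effect of hyperoxia at 24 h less that at 6 h was tested itself. It was called for 5 of the 39 genes, higher for Wnt5a and Fzd10 and lower for Wnt16, Fzd4 and Fzd9, or 12.8% where 12.3% of all genes were called (6.63% higher and 5.63% lower).

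The receptor genes called at 24 h were all Frizzled genes. Their promoters are shown because Fzd10 rose and Fzd4 and Fzd9 fell on the same arrays. Each line gives the 250 bases before the start in RefSeq's promoter table for GRCm38.p6, in the direction of the gene. Over that table, the start was also that of the gene in RefSeq's gene table for 19953 of 32851 promoters. Capitals mark a match to the antioxidant response element core, the letters TGACNNNGC, bound by NRF2 with small MAF proteins.
Fzd10 (chr5:128600856-128601105, plus strand): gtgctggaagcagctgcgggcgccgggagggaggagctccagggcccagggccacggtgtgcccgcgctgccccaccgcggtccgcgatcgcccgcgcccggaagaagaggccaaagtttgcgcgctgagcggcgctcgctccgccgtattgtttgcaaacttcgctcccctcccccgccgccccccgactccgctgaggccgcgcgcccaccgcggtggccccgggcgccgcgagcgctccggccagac
Fzd4 (chr7:89404116-89404365, plus strand): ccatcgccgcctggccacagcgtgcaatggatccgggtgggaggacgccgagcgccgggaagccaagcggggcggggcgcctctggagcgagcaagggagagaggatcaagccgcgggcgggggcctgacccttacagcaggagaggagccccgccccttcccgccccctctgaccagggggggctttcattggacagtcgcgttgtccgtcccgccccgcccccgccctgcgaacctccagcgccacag
Fzd9 (chr5:135251048-135251297, minus strand): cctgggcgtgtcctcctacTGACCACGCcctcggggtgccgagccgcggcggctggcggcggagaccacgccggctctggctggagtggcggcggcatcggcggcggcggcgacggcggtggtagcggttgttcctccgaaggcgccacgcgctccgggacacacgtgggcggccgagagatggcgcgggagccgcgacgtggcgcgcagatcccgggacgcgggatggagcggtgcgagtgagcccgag
Only the Fzd9 window held one of the 3 motifs searched on both strands, which besides this core were TCF/LEF sites (the letters CTTTGAA or the letters CTTTGAT, besides the letters CTTTGTA or the letters CTTTGTT) and the p53 half-site consensus. Over 32851 promoters of the same length, 14.8% held a TCF/LEF site, 10.2% the antioxidant response element core and 7.13% the p53 half-site. Of 31 Wnt genes with a promoter in the table, 5, 6 and 1 held them in that order. Among these, 9 were called at 24 h, and 1, 3 and 0 of those did. A gene counted where any of its promoters matched, and Lef1, Wnt5b, Wnt11, Rnf43 and Tcf7 had more than 1. The shares over all promoters are per promoter, so counts and shares are not in like units. A match is a run of letters and not a site shown to be bound.

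Fzd10 is a receptor gene. At 24 h its level was -3.45, -3.20, -3.34 and -3.51 in hyperoxia, against -6.64, -7.00, -6.68 and -6.11 in normoxia. The probe was well above background on all 4 hyperoxia arrays and on none of the 4 normoxia arrays, so that its normoxia level was not measured. Against the dimmest detected signal of each normoxia array, Fzd10 was 3.69-fold higher in hyperoxia. That is not a strict lower bound, since undetected probes can read above that signal. The undetected R-spondin gene Rspo4 read -5.44 on hyperoxia 24 h replicate 2, where the dimmest detected signal was -5.76. The fit gave a log2 fold change of 3.23 ± 0.24 (limma adjusted p = 1.56e-07). Fzd10 entered the test only through the hyperoxia groups. Its p and standard error at 24 h rest on normoxia signals that were not detected, so they do not measure the size of the change. Under normexp background correction, which lifts the dimmest signals, the log2 fold change was 0.71. At 6 h Fzd10 had levels of -5.35, -5.33, -4.69 and -5.53 in hyperoxia, against -6.56, -6.71, -5.65 and -6.12 in normoxia, with the probe above background on 3 of 4 and 1 of 4 arrays. The groups did not overlap then either, and the log2 fold change was 1.04 ± 0.24 (limma adjusted p = 0.105). It was 1.24 with an adjusted p of 0.036 without normoxia 6 h replicate 3. The effect of hyperoxia on Fzd10 was larger at 24 h than at 6 h by 2.20 ± 0.34 (limma adjusted p = 0.00061), a value that rests in part on signals near background.

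Fzd4, a receptor for Wnt ligands and for norrin, the retinal vessel growth factor, went the other way. Levels at 24 h were 0.89, 1.12, 0.84 and 0.95 in hyperoxia, against 1.62, 1.81, 1.57 and 1.75 in normoxia. Every hyperoxia array lay below every normoxia array, and the 4 differences between same-numbered arrays lay between -0.80 and -0.68. Fzd4 fell with a log2 fold change of -0.73 ± 0.09 (limma adjusted p = 1.71e-05). At 6 h, levels were 1.15, 1.04, 1.33 and 1.29 in hyperoxia and 1.30, 1.35, 1.16 and 1.16 in normoxia, and the groups overlapped (-0.04 ± 0.09, limma adjusted p = 0.985). The hyperoxia effects at 24 h and 6 h differed by -0.69 ± 0.12 (limma adjusted p = 0.0019). Between the times Fzd4 rose in normoxia (0.44) and fell in hyperoxia (-0.25), the fall being lost in 4 of the 8 fits without 1 array, those without hyperoxia 6 h replicate 3 or 4 or hyperoxia 24 h replicate 1 or 3.

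Fzd9, another Frizzled receptor, had levels at 24 h of -2.50, -2.68, -2.68 and -2.41 in hyperoxia, against -2.06, -2.11, -1.98 and -1.76 in normoxia. The groups did not overlap, and Fzd9 fell with a log2 fold change of -0.59 ± 0.11 (limma adjusted p = 0.000669). At 6 h the levels were -2.47, -2.54, -2.45 and -2.68 in hyperoxia and -2.39, -2.51, -2.84 and -2.60 in normoxia. Those groups overlapped (0.05 ± 0.11, limma adjusted p = 0.986), and the effects at 24 h and 6 h differed by -0.64 ± 0.15 (limma adjusted p = 0.0115). Between the times the mean of the hyperoxia arrays moved by -0.03 ± 0.11, whereas Fzd9 rose in normoxia by 0.61 ± 0.11.

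The other 9 receptor and co-receptor genes were not called at 24 h. On the probes used, their log2 fold changes lay between -0.09 for Fzd3 and 0.26 for Fzd6. In a fit of single probes, second probes gave 0.62 for Fzd5 and -0.18 for Fzd2, and neither passed. Fzd2 lay between 4.21 and 4.37 in hyperoxia and between 4.12 and 4.31 in normoxia at 24 h. The co-receptor genes Lrp5 and Lrp6 gave -0.07 ± 0.08 and 0.11 ± 0.14. Fzd7 was represented by a probe with 0.11 ± 0.10, while its second probe gave 0.33 with a limma adjusted p of 0.029 in a fit of single probes, so that the call for Fzd7 depends on the probe.

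**Figure D2:**
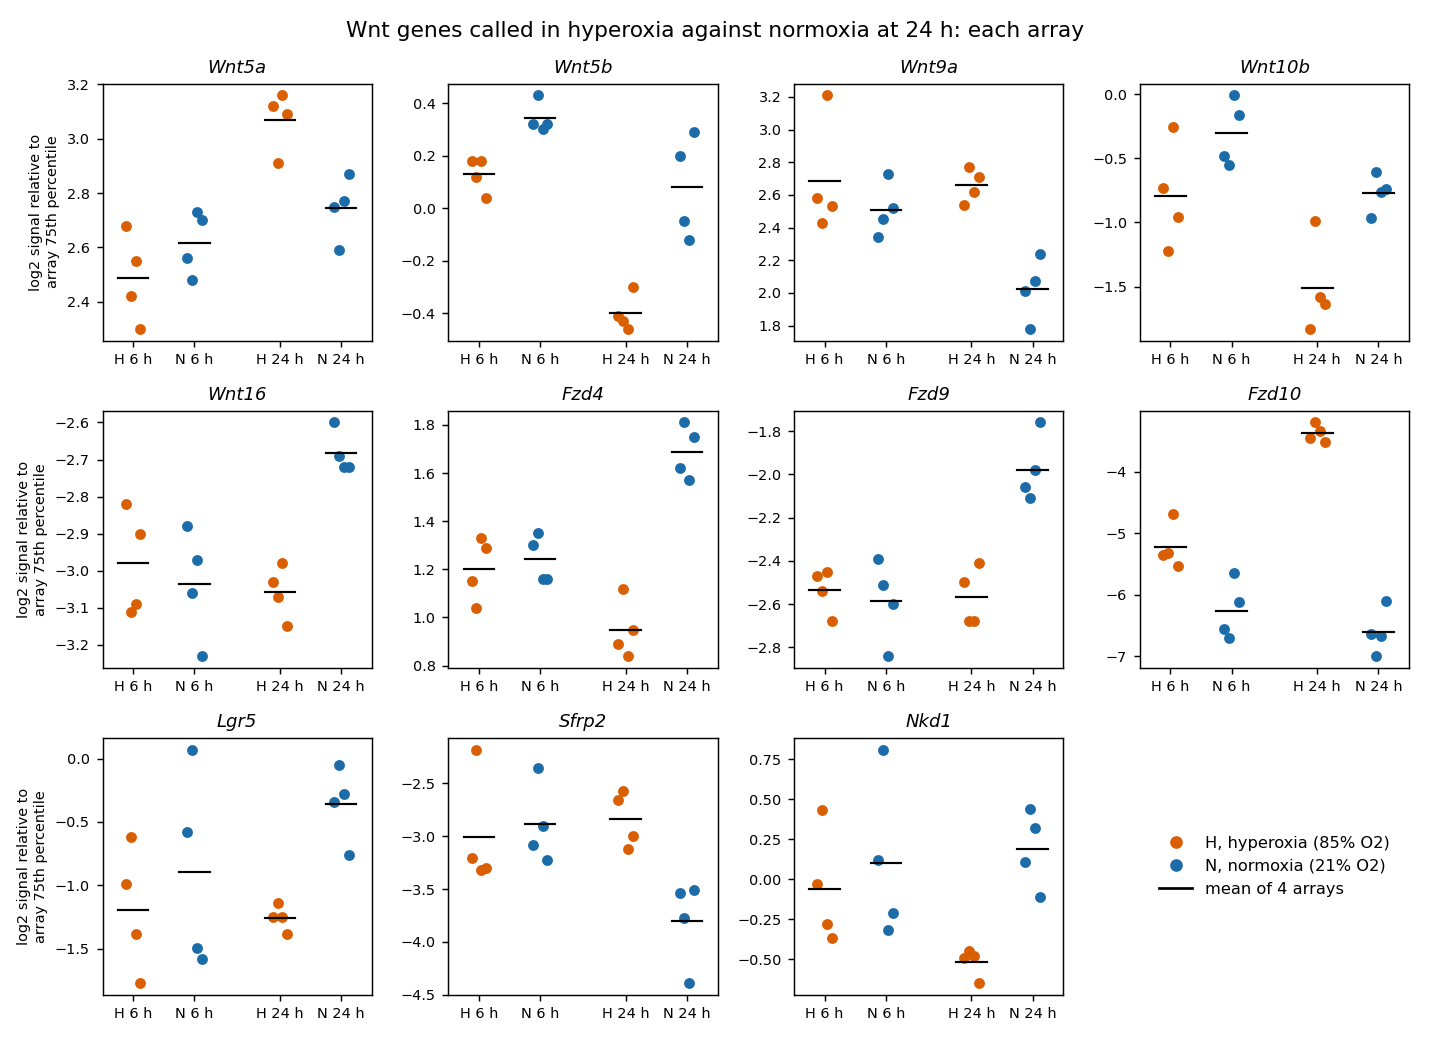
Level of each of the 11 Wnt genes called at 24 h on every array (vertical axis, log2 signal relative to the array's 75th percentile) in hyperoxia (H, orange) and normoxia (N, blue) at 6 h and 24 h; bars are means of 4 arrays. At 24 h the 2 oxygen groups do not overlap for any of the 11, and for Fzd10 the 4 hyperoxia arrays lie between -3.51 and -3.20 and the 4 normoxia arrays between -7.00 and -6.11.

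Among the 14 tested ligand genes, 2 rose and 3 fell at 24 h. Wnt5a, the ligand best known for signalling through Ror and Frizzled receptors without beta-catenin, had levels of 3.12, 2.91, 3.16 and 3.09 in hyperoxia, against 2.75, 2.59, 2.77 and 2.87 in normoxia. The lowest hyperoxia array stood just above the highest normoxia array, and Wnt5a rose with a log2 fold change of 0.33 ± 0.09 (limma adjusted p = 0.0171). The call was lost without hyperoxia 24 h replicate 3 or normoxia 24 h replicate 2, with an adjusted p of up to 0.0568. At 6 h Wnt5a had levels of 2.68, 2.42, 2.55 and 2.30 in hyperoxia and 2.56, 2.48, 2.73 and 2.70 in normoxia, with groups that overlapped (-0.13 ± 0.09, limma adjusted p = 0.873). The difference between the effects was 0.45 ± 0.13 (limma adjusted p = 0.0371), and this call was lost in 11 of 24 other fits, 10 of them fits without 1 array, with adjusted p of up to 0.0788.

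Wnt5b, its close relative, moved the opposite way. Levels at 24 h were -0.41, -0.43, -0.46 and -0.30 in hyperoxia, against 0.20, -0.05, -0.12 and 0.29 in normoxia. All hyperoxia arrays were below all normoxia arrays, with a log2 fold change of -0.48 ± 0.08 (limma adjusted p = 0.000624), and this call held in all 17 other fits. The effects at 24 h and 6 h differed by -0.26 ± 0.12, which did not pass (limma adjusted p = 0.184).

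Wnt9a, a ligand known from joint development, had levels at 24 h of 2.54, 2.77, 2.62 and 2.71 in hyperoxia, against 2.01, 1.78, 2.07 and 2.24 in normoxia. It rose with a log2 fold change of 0.63 ± 0.15 (limma adjusted p = 0.00544), and no hyperoxia array was as low as any normoxia array. At 6 h the log2 fold change was 0.18 ± 0.15, with levels of 2.58, 2.43, 3.21 and 2.53 in hyperoxia and 2.34, 2.45, 2.73 and 2.52 in normoxia. The higher level at 24 h stood beside a fall over time in normoxia (-0.48 ± 0.15, limma adjusted p = 0.0179) and a change of -0.03 ± 0.15 in hyperoxia. The fall in normoxia was lost without normoxia 6 h replicate 3 or normoxia 24 h replicate 2.

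Wnt10b, a beta-catenin ligand known from bone and fat, had levels at 24 h of -1.83, -0.99, -1.58 and -1.64 in hyperoxia, against -0.97, -0.61, -0.76 and -0.74 in normoxia. The second hyperoxia array came close to the first normoxia array, and the other 3 lay well below. Wnt10b fell with a log2 fold change of -0.74 ± 0.21 (limma adjusted p = 0.0144). At 6 h the hyperoxia arrays read -0.73, -1.22, -0.26 and -0.96 and the normoxia arrays -0.48, -0.55, -0.01 and -0.16 (-0.50 ± 0.21, limma adjusted p = 0.587).

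Wnt16, a ligand known for its part in cortical bone, fell too. Its probe is shown because it lies on the conserved stretch of the Wnt family around the serine that carries the lipid, whose codons are in capitals.
Wnt16 probe (chr6:22247804-22247863 of mm9, plus strand): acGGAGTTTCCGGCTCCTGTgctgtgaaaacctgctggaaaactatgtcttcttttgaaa
At 24 h the levels were -3.03, -3.07, -2.98 and -3.15 in hyperoxia, against -2.60, -2.69, -2.72 and -2.72 in normoxia. The groups were tight and apart, with a log2 fold change of -0.38 ± 0.08 (limma adjusted p = 0.00361). At 6 h they were -2.82, -3.11, -3.09 and -2.90 in hyperoxia and -2.88, -3.06, -2.97 and -3.23 in normoxia, and they overlapped (0.06 ± 0.08). The effects differed by -0.43 ± 0.12 (limma adjusted p = 0.0283), a call lost in 8 of 24 other fits, 7 of them fits without 1 array. A second Wnt16 probe was above background on 1 array of 16, and averaging both ended the 24 h call.

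The 9 ligand genes not called at 24 h had log2 fold changes between -0.80 for Wnt4 and 0.45 for Wnt7b. Wnt4 read 0.77, 0.81, 0.14 and -0.53 in hyperoxia and 1.71, 1.65, 0.83 and 0.19 in normoxia, so the groups overlapped although every hyperoxia array lay below the normoxia array of the same number. Wnt7b, which in mouse is made by the lung epithelium and acts on the mesenchyme, read -0.05, -0.04, -0.03 and 0.18 in hyperoxia and -0.59, -0.71, -0.41 and -0.04 in normoxia (0.45 ± 0.18, limma adjusted p = 0.0714). Wnt2, a ligand of lung mesenchyme in mouse, lay between -5.24 and -3.17 in hyperoxia and between -4.53 and -3.11 in normoxia. Its spread was larger than its log2 fold change of -0.33 ± 0.39.

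In the R-spondin arm, Lgr5, known as a stem cell marker in mouse intestine, had levels at 24 h of -1.25, -1.14, -1.25 and -1.38 in hyperoxia, against -0.34, -0.05, -0.28 and -0.76 in normoxia. The groups did not overlap, yet in the main fit Lgr5 passed only narrowly, with a log2 fold change of -0.90 ± 0.32 (limma adjusted p = 0.0499). It was lost in 10 of 17 other fits, among them those without any 1 of the 4 hyperoxia 24 h arrays or without normoxia 24 h replicate 1, 2 or 3, with adjusted p of up to 0.119. At 6 h the arrays spread over -1.77 to -0.62 in hyperoxia and -1.58 to 0.07 in normoxia. A second Lgr5 probe was not well above background on any array. Lgr4 and Lgr6 were not called at 24 h, with -0.68 ± 0.58 and 0.41 ± 0.24.

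Of the feedback inhibitors, Nkd1, which binds Dishevelled, had levels at 24 h of -0.49, -0.45, -0.48 and -0.65 in hyperoxia, against 0.11, 0.44, 0.32 and -0.11 in normoxia. It fell with a log2 fold change of -0.70 ± 0.22 (limma adjusted p = 0.0278), and the groups stood apart. The call was lost in 6 of 17 other fits, with limma adjusted p of up to 0.178. Among them were those without hyperoxia 24 h replicate 1, 3 or 4 or normoxia 24 h replicate 2 or 3. A second Nkd1 probe was well above background on 2 hyperoxia 6 h arrays and on no other array. Axin2, the scaffold of the destruction complex that is widely read as a sign of canonical Wnt activity, was not called: it read -1.08, -0.89, -1.04 and -1.01 in hyperoxia and -1.30, -0.81, -1.32 and -1.66 in normoxia (0.27 ± 0.16, limma adjusted p = 0.228), and a second probe gave -0.11. The ubiquitin ligase genes Rnf43 and Znrf3, which clear Frizzled receptors, gave -0.27 ± 0.15 and 0.19 ± 0.10 and were not called. Neither transcription factor gene passed, with 0.20 ± 0.12 for Lef1 and -0.07 ± 0.08 for Tcf7.

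Of the secreted inhibitors, Sfrp2, which binds Wnt ligands outside the cell, had levels at 24 h of -2.66, -2.57, -3.12 and -3.00 in hyperoxia, against -3.54, -3.77, -4.39 and -3.51 in normoxia. It rose with a log2 fold change of 0.96 ± 0.27 (limma adjusted p = 0.0153), and no arrays overlapped. Without normoxia 24 h replicate 3 the limma adjusted p was 0.0513, and under normexp the log2 fold change was 0.48. At 6 h the second array of each oxygen group was the highest, with -3.21, -2.18, -3.32 and -3.30 in hyperoxia and -3.08, -2.35, -2.90 and -3.22 in normoxia (-0.12 ± 0.27). Sfrp1, Dkk2 and Dkk3 were not called at 24 h, with 0.29 ± 0.35, -0.07 ± 0.15 and 0.13 ± 0.16.

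Same-numbered arrays of the 2 oxygen groups shared a slide column, and at 24 h their deviations from the group means went together. With the replicate number as a block within each time, 7 Wnt genes were higher and 8 lower at 24 h, or 38.5% of the 39, where 33.4% of all genes were called in that fit. It added Wnt7a, Wnt7b and Lgr6 to the genes that were higher and Wnt4 to those that were lower. The clearest case was Wnt4, a ligand of kidney and reproductive tract development, whose standard error was 0.16 with the block and 0.60 without. Its differences between same-numbered arrays were -0.94, -0.84, -0.69 and -0.72, with a limma adjusted p of 0.00587 with the block and 0.364 without. For Wnt7b these differences were 0.54, 0.67, 0.38 and 0.22, with a limma adjusted p of 0.00307 with the block. Wnt7a and Lgr6 had blocked adjusted p of 0.0364 and 0.0339, with differences of 0.05 to 0.49 and of 0.00 to 0.79. Lgr5, Nkd1 and Sfrp2, whose calls were lost in 1 or more other fits, kept them with the block. Their limma adjusted p were then 0.000896, 0.000388 and 0.000872, in that order.

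**Figure D3:**
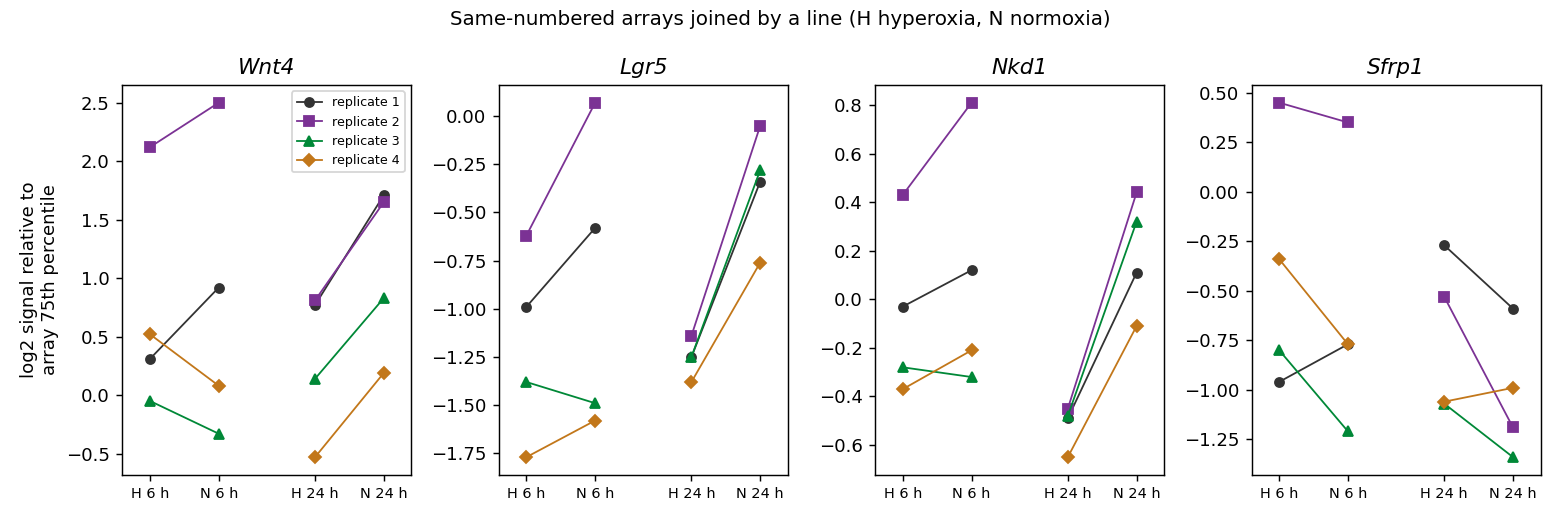
Levels (vertical axis, log2 signal relative to the array's 75th percentile) of Wnt4, Lgr5, Nkd1 and Sfrp1 in hyperoxia (H) and normoxia (N) at 6 h and 24 h, with same-numbered arrays joined by a line. These 4 genes were chosen after their values were seen. The 4 lines of Wnt4 at 24 h run nearly parallel, each with its hyperoxia end lower by 0.69 to 0.94, while at 6 h replicate 2 is the highest array of both oxygen groups for all 4 genes.

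Between 6 h and 24 h more Wnt genes changed than between the oxygen groups, as did the array as a whole. In hyperoxia 9 rose and 9 fell, 46.2% of the 39 where 52.4% of all genes were called (25% higher and 27.4% lower), and in normoxia 7 rose and 8 fell, 38.5% where 44.2% were called (20.6% higher and 23.5% lower). These changes go with the slide, and markers of several cell types moved with time too. The 2 oxygen groups shared the 4 largest falls, all of ligand genes. For Wnt10a, a ligand known from tooth and skin, the log2 fold change was -2.36 ± 0.37 in hyperoxia (limma adjusted p = 0.000115) and -2.43 ± 0.37 in normoxia (limma adjusted p = 0.000174). Wnt7a fell by 2.04 on the log2 scale in hyperoxia and by 2.09 in normoxia, and its levels at 24 h lay between -1.09 and -0.70 in hyperoxia and between -1.58 and -0.80 in normoxia. At 6 h all 8 of its arrays were above 0, from 0.71 to 1.64 in hyperoxia and from 0.56 to 1.41 in normoxia. Wnt7b fell by 1.04 in hyperoxia and 1.38 in normoxia, and Wnt11, a ligand of the planar polarity branch, by 0.83 and 0.94. The fifth largest fall was that of Wnt10b in hyperoxia (-0.72) and of Sfrp2 in normoxia (-0.92).

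The secreted inhibitor genes Dkk3 and Dkk2 rose over time in both oxygen groups. Dkk3, a divergent member of the Dickkopf family, read 3.60, 3.14, 3.21 and 3.35 at 24 h and 2.28, 2.19, 2.09 and 1.88 at 6 h in hyperoxia (1.21 ± 0.16, limma adjusted p = 3.24e-05). In normoxia it read 3.30, 2.93, 3.15 and 3.38 at 24 h and 2.31, 2.62, 1.82 and 2.01 at 6 h (1.00 ± 0.16, limma adjusted p = 0.000294). Dkk2, which binds Lrp5 and Lrp6, rose by 0.95 in hyperoxia and 0.73 in normoxia, and Lef1 by 0.90 and 0.53. The other largest rises were those of Fzd10 (1.85 ± 0.24) and Lgr6 (0.77 ± 0.24) in hyperoxia and of Fzd9 (0.61 ± 0.11) and Fzd4 (0.44 ± 0.09) in normoxia. Averaging its 2 probes ended the call for Lgr6.

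Markers of the cells changed between the times as well. Of 9 tested type II markers, 7 fell and none rose in hyperoxia, and 6 fell and 1 rose in normoxia, with log2 fold changes for Sftpc of -2.51 in hyperoxia and -2.50 in normoxia. In hyperoxia their summed signal on the log2 scale lay between 4.87 and 5.18 at 24 h, against 5.81 to 6.33 at 6 h. In normoxia it lay between 5.30 and 5.49, against 5.91 to 6.21. Such a sum is carried by the brightest probes of its list. Of 4 airway cell markers, 3 fell in hyperoxia and 4 in normoxia. Scgb1a1, the club cell secretory protein gene, gave -5.02 in hyperoxia and -5.66 in normoxia, and the airway markers summed to 0.85 to 1.10 at 24 h and 4.59 to 5.60 at 6 h in hyperoxia and to 0.16 to 0.70 and 4.54 to 5.55 in normoxia. Of 10 fibroblast and smooth muscle markers, 6 rose in hyperoxia and 5 in normoxia and none fell, with Acta2 at 0.75 in hyperoxia and 0.84 in normoxia. They summed to 10.52 to 10.61 at 24 h and 9.77 to 10.16 at 6 h in hyperoxia, and to 10.61 to 10.81 and 9.85 to 10.10 in normoxia. Of 6 type I markers, 4 fell and 1 rose in hyperoxia and 3 fell and 1 rose in normoxia, while their sums overlapped between the times. Of 6 macrophage markers 2 rose and 2 fell in hyperoxia and 1 rose and 2 fell in normoxia. Their sums, at least 6.02 in hyperoxia and 5.69 in normoxia at 24 h, stood above those at 6 h. Those were at least 4.31 and 4.40, with no array above 5. These sums followed Itgam, the brightest of the list, which rose by 1.54 in hyperoxia and 1.49 in normoxia on the log2 scale. The log2 fold changes of Marco, Mrc1, Adgre1 and Chil3 were negative in both oxygen groups. Mesothelial, endothelial and lymphocyte markers gave 2 calls or fewer each in either oxygen group. The part of these markers in the changes of the Wnt genes over time was not tested.

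**Figure D4:**
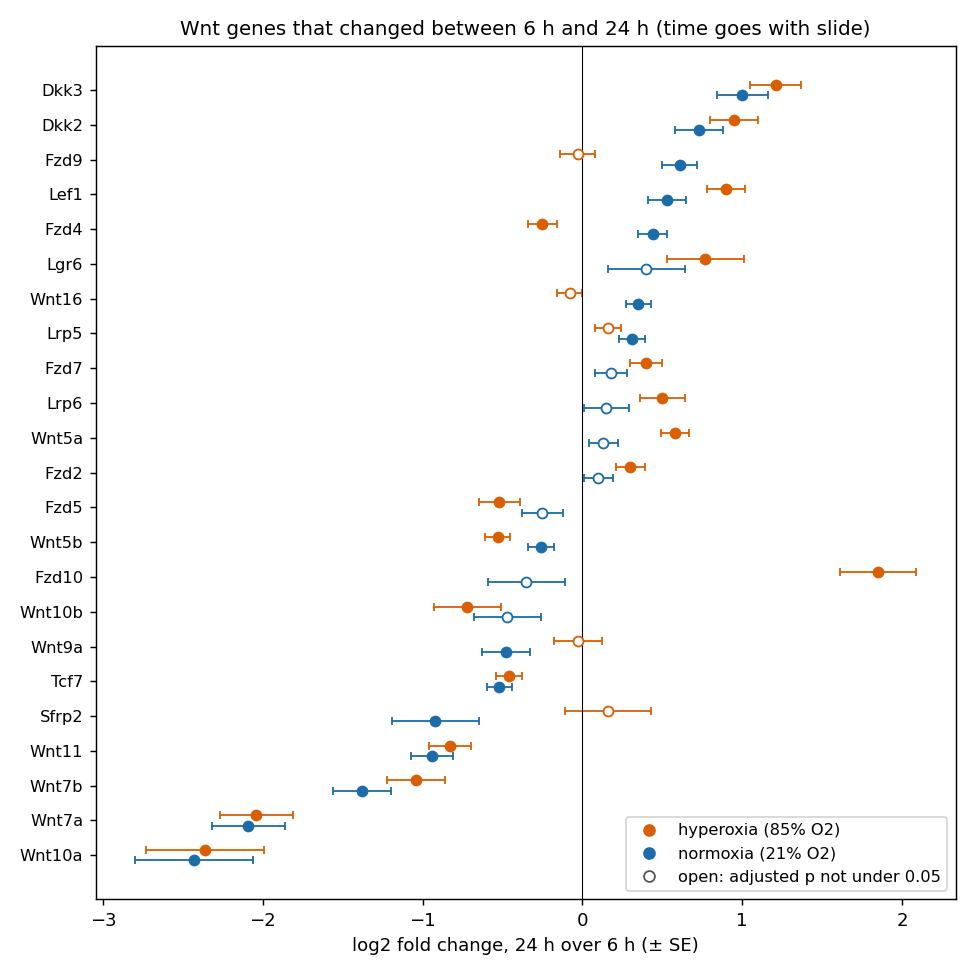
Log2 fold change of 24 h over 6 h (horizontal axis, ± SE) in hyperoxia (orange) and normoxia (blue) for the Wnt genes called over time in either; open circles mark a group in which the gene was not called. Wnt10a and Wnt7a lie below -2 in both groups and Dkk3 at 1.21 and 1.00, while Fzd4 lies at -0.25 in hyperoxia and 0.44 in normoxia. Time goes with the slide.

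The rest of the pathway was read from a list of 64 other genes, of which 58 were tested. At 24 h, 10 were higher and 4 lower, 24.1% of the 58 where 28.3% of all genes were called, with a median log2 fold change of -0.02. Both genes of ligand secretion rose, Porcn (0.59), the enzyme that adds the lipid to Wnt ligands, and Wls (0.37), which carries them to the surface. Wnt ligands, R-spondins and other receptors gave 1 call, the fall of Ror2 (-0.38), a receptor for Wnt5a. In the destruction complex list Dvl2 (0.39), Tnks2 (0.21) and Nkd2 (0.45) rose, but the mean over all Nkd2 probes gave a log2 fold change of -0.14. Among nuclear partners Tle4 (1.10 ± 0.12, limma adjusted p = 5.54e-06), a co-repressor that binds Tcf factors, was the only call. Without hyperoxia 24 h replicate 3, 6 of the 58 were higher and 1 lower, and without hyperoxia 24 h replicate 4 none was lower. Of all genes, 3331 were higher and 2730 lower without replicate 3, and 2868 lower without replicate 4. With all arrays these counts were 3950 higher and 3254 lower. Beta-catenin itself, Ctnnb1, read 5.37, 5.30, 5.41 and 5.34 in hyperoxia and 5.11, 5.25, 5.12 and 5.22 in normoxia and was not called.

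Genes often counted as Wnt targets did not move one way: Sp5 (0.81), Fgf18 (0.67) and Ascl2 rose, Myc (-0.37) fell, and Ccnd1, Cd44, Tnfrsf19 and Ccn4 were not called. Ascl2, a transcription factor of intestinal stem cells in mouse, read -1.97, -1.84, -2.08 and -1.98 in hyperoxia, against -3.98, -4.74, -4.20 and -4.52 in normoxia, with a log2 fold change of 2.39 ± 0.13 (limma adjusted p = 6.96e-09). At 6 h it was the only gene of the 58 called: -3.14, -2.99, -3.20 and -3.17 in hyperoxia, against -3.91, -4.00, -3.75 and -3.75 in normoxia (0.73 ± 0.13, limma adjusted p = 0.0258), a call lost in 10 of 17 other fits. These were the fits without hyperoxia 6 h replicate 1, 2 or 4 or any 1 of the 4 normoxia 6 h arrays, that with no filter on dim probes (limma adjusted p = 0.0523), and both with the replicate number as a block, with a limma adjusted p of 0.0657 over all 16 arrays and 0.1 within each time. The effect on Ascl2 at 24 h exceeded that at 6 h by 1.67. Elsewhere Prickle2 (1.09), a planar polarity gene, rose, and Sfrp4 (-0.59) and Celsr1 (-0.50) fell. Prickle2 entered the test only through hyperoxia at 24 h, being above background on 3 of 4 hyperoxia and 1 of 4 normoxia arrays. Under normexp its log2 fold change was 0.03.

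**Figure D5:**
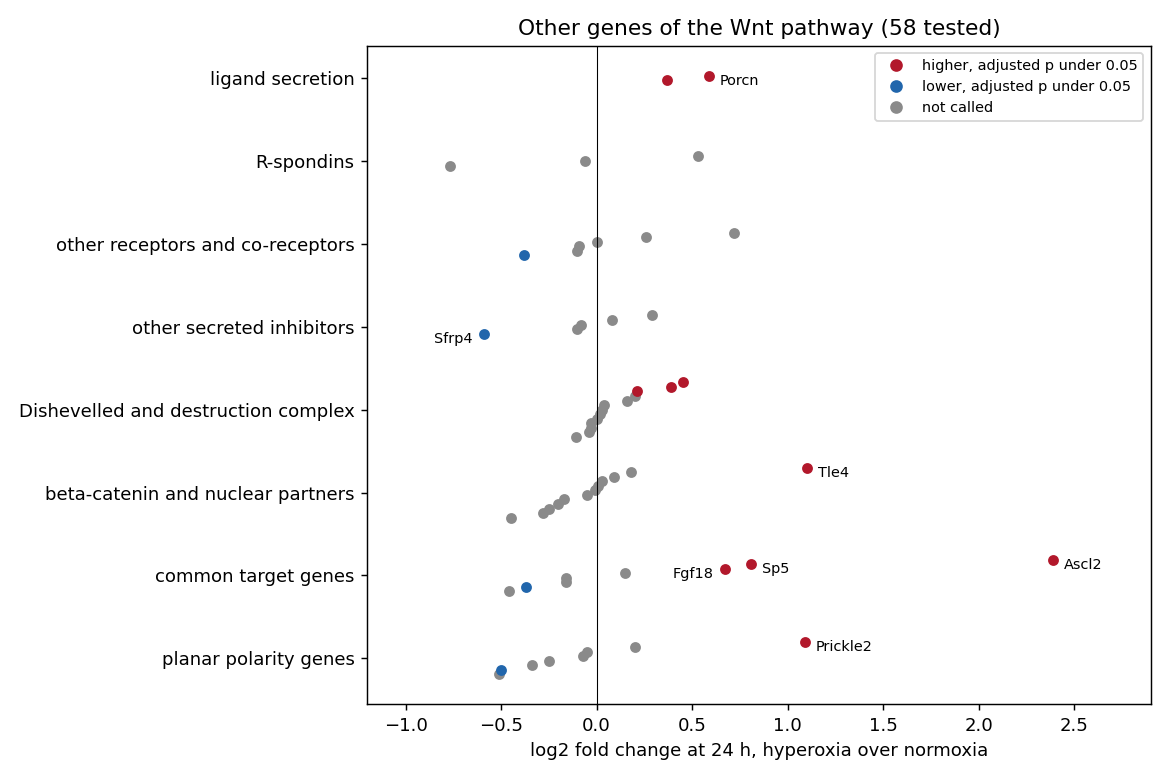
Log2 fold change at 24 h, hyperoxia over normoxia (horizontal axis), for the 58 tested genes of 8 groups of other Wnt pathway genes; red points were called higher and blue points lower. Ascl2 at 2.39, Tle4 at 1.10 and Prickle2 at 1.09 lie farthest to the right.

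Markers of the cells in these samples also differed at 24 h. Of 9 tested type II markers 1 rose (Abca3) and 4 fell (Sftpb, Lamp3, Etv5 and Lpcat1). Their summed signal was 4.87 to 5.18 in hyperoxia against 5.30 to 5.49 in normoxia on the log2 scale. Lamp3, the brightest of the list at 24 h, had mean levels of 3.30 in hyperoxia and 4.34 in normoxia. Sftpc (0.45), Sftpa1 (0.79) and Sftpd (0.45) had positive log2 fold changes and Napsa (-0.08) a negative one, none of them called. Airway cell markers summed to 0.85 to 1.10 in hyperoxia and 0.16 to 0.70 in normoxia, with 1 of 4 higher (Scgb1a1, 0.78), and Scgb3a2 was not above background on any array. Fibroblast and smooth muscle markers summed to 10.52 to 10.61 in hyperoxia and 10.61 to 10.81 in normoxia, with 1 of 10 higher (Tcf21, 0.87). Macrophage markers summed to 6.02 to 6.18 in hyperoxia and 5.69 to 6.07 in normoxia, with 1 of 6 higher (Cd68, 1.02). This sum followed Itgam (0.26), which was not called. Mesothelial markers summed to 6.20 to 6.89 and 6.07 to 6.44 with none of 4 called, and of 3 tested endothelial markers Egfl7 (-0.31) fell while Emcn was not above background on any array. None of 6 type I cell markers and none of 5 lymphocyte markers was called at 24 h, and at 6 h no marker of any of these lists was. Their part in the Wnt gene differences was not tested.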

How the data were processed

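Total RNA was labelled with Cy3, per the labels' protocols, and each array was read with Agilent Feature Extraction 10.7.3.1. The main values are the authors' deposited processed intensity, which per the file headers is background-subtracted and spatially detrended but not normalized between arrays. A table of log2 values deposited by the authors, each array with the same median of 7.194 and the normalization unstated, served as an alternative, as did the deposited raw spot and background intensity.

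Control spots were left out and spots of 1 probe averaged, giving 55681 probes. A spot marked as an outlier was left out only where another spot of its probe remained, and was otherwise kept. Only 432 probes were on more than 1 spot. The log2 signal was set relative to each array's 75th percentile. A gene entered the test where its brightest probe passed the scanner software's background call on 3 or more of the 4 arrays in some group. limma 3.58.1 in R 4.3.3 fitted 1 mean per group over 16 arrays, with contrasts, empirical Bayes moderation, two-sided tests and Benjamini-Hochberg adjustment over 25426 genes (checked on simulated data). No spot was saturated, and the number of arrays limits the precision. The 3.69-fold value for Fzd10 sets each normoxia 24 h array at its lowest "well above background" signal.

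The members and the gene lists were chosen with earlier results of these data known. Members called at 6 h, at 24 h or in the difference of the effects are given with every array, others by ranges, and over time by the 5 largest rises and falls in each oxygen group. The accession of the probe used matched the same RefSeq symbol for 42 of 44 genes.

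Same-numbered arrays deviated together at 24 h, with correlations of residuals of 0.246, 0.344, 0.244 and 0.261, each over 0.1, the value taken to mean pairing, and at 6 h with 0.251, 0.254, 0.354 and 0.0865. The number is the slide column.

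Alternatives were quantile normalization, normexp with an offset of 50, the deposited table, other filters, the mean over probes, a replicate block, only the groups compared, and each array left out.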

Additional observations from a re-analysis of the deposited data

Results flagged for a closer look

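The difference between the hyperoxia effects at 24 h and at 6 h, tested in limma, passed for 5 of the 39 genes, 12.8% of them where 12.3% of all genes passed. It was 2.20 for Fzd10 and 0.45 for Wnt5a, and -0.43 for Wnt16, -0.69 for Fzd4 and -0.64 for Fzd9.

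In 7 of 153 groups of 4 arrays 1 array stood apart by Dixon's criterion, which chance alone meets in about 1 group in 20. The widest gap was that of Lgr4 on normoxia 6 h replicate 3, at -0.27 where the other 3 arrays read between -3.60 and -3.56. Sfrp2 read -2.18 on hyperoxia 6 h replicate 2, against -3.32 to -3.21 on the others of its group. For Wnt9b normoxia 24 h replicate 3 read -5.39 where the others read -4.61 to -4.50. The remaining 4 gaps were small: Wnt1 read 1.45 on hyperoxia 24 h replicate 4 and 1.46 on normoxia 24 h replicate 2, Wnt7b read 0.18 on hyperoxia 24 h replicate 4, and Wnt5b read 0.43 on normoxia 6 h replicate 2.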

How the results depend on the processing

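With the replicate number as a block within each time, 7 Wnt genes were higher at 24 h, against 4 without the block, and with the number as a block over all 16 arrays 5 were. Of all genes, 4721, 3950 and 4092 were higher in these fits, in that order. Leaving out 1 array at a time gave 0 to 1 genes higher at 6 h, 3 to 5 higher and 5 to 7 lower at 24 h, and 1 to 3 higher in the difference between the effects (2 with all arrays), where 1 was also found with no filter on dim probes. Of all genes, 33 to 132 were then higher at 6 h (60 with all arrays). At 24 h, 3312 to 3600 were higher and 2730 to 3068 lower, against 3950 and 3254 with all arrays. In the difference 1296 to 2711 were higher (1686 with all arrays), and 1298 with no filter on dim probes. Counts of members over time and of members lower in the other comparisons stayed within 1.5 times of those reported. At 24 h Wnt5b, Wnt9a, Wnt10b, Fzd4 and Fzd9 kept their call in all 17 other fits. Fzd10 kept its call too, but in every fit that call rests on normoxia signals that were not detected. Under normexp the change over time in normoxia turned sign for Wnt9b (0.43, against -0.04) and for Fzd10 (0.41, against -0.35), both near background, and the cause was not tested. Averaging the probes of Nkd2 gave -0.14 at 24 h and -0.13 in the difference. Other pathway genes called at 24 h numbered 6 to 12 higher and 0 to 9 lower over the alternatives, where all genes called numbered 3312 to 4721 higher and 2730 to 3762 lower. Signals near background, such as those of Fzd10 in normoxia, and 4 arrays a group limit what could be detected.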
